A study of Mus musculus with 57 samples.

Results

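The collagens, laminins, integrins, fibulins, fibronectin (Fn1) and SPARC are the genes described here, in 3 brain regions of mice that had drunk ethanol by choice. Members were taken by gene symbol, among probesets of the Affymetrix mouse expression array used annotated to 1 gene. The symbols sought were the collagen chains (Col), the laminin alpha, beta and gamma chains (Lama, Lamb, Lamc), the integrin subunits (Itga, Itgb), the fibulins (Fbln), Fn1 and Sparc. They matched 129 probesets of 77 genes, out of 12393 genes in the series. For each gene the probeset with the highest mean over all arrays was used, and a gene was kept when that probeset reached a log2 signal of 4.5 on at least 1 array. All 70 genes kept reached that level in NAc, 46 in PFC and 62 in VTA. Of all 19815 probesets kept, 19642 did so in NAc, 16011 in PFC and 17545 in VTA. In NAc alone 6 genes reached it (Col14a1, Col22a1, Col26a1, Col9a2, Fbln7 and Lamb3), beside 1989 of all probesets kept. The level was applied to the deposited values, whose array medians were highest in NAc. The rule removed 7 genes, Col4a4, Col4a5, Col17a1, Itga4, Itga8, Itgb6 and Itgb3bp. The genes nearest the limit were Col22a1, whose highest value was 4.66, and Fbln7 at 4.70 inside it, and Itga4 at 4.49 and Itgb3bp at 4.45 outside it. A symbol rule also takes in a few genes that only bear an integrin name, Itgb1bp1 and Itgb1bp2, which encode proteins that bind the integrin beta-1 tail.

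Male C57Bl/6NCrl mice, 42 to 49 days old on arrival and later housed singly, were offered 10% (w/v) ethanol and water in 2 bottles for 18 hours a day, followed by 6 hours of water alone. There were 16 sessions, in 4 rounds of 4 daily sessions with days of abstinence between the rounds, and tissue was taken 6 days after the last session. The 3 groups are the nucleus accumbens (NAc), the prefrontal cortex (PFC) and the piece labelled ventral tegmental area (VTA), which the methods describe as ventral midbrain that includes this area. Each group has 19 arrays, 1 mouse and 1 region per array. By the methods the same mice gave all 3 regions, so the 57 arrays do not stand for 57 mice, and the region comparisons take the arrays as independent. The replicate numbers in the labels are not said to mark a mouse. Every mouse drank ethanol and there were no ethanol-naive mice, so the comparisons are between regions of drinking mice and not between ethanol and water. The amount each mouse drank is not among the sample labels, and expression was not set against intake here. The spread between mice within a region is given instead.

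Several arrays need naming before the results. The array titled PFC replicate 20 carries VTA in its other label fields. It was kept as PFC by its title, and its values lay within the range of the other PFC arrays for 66 of the 70 genes, within the NAc range for 35 and within the VTA range for 32. NAc replicates 1, 6 and 19 stood apart from the other NAc arrays along the first principal component, which held 51.2% of the NAc variance against 17.2% in PFC and 32.4% in VTA. PFC replicate 3 had the lowest mean of meningeal fibroblast markers in PFC (5.76, with 6.44 on the next array). For the genes described here, the largest change of a difference was 0.02 without PFC replicate 20. It was 0.07 without PFC replicate 3 and 0.13 without the 3 NAc arrays. Neuronal markers were set against the region labels. NAc exceeded PFC and VTA in all 3 measured striatal neuron markers, all 3 cortical excitatory neuron markers were higher in PFC than in NAc and VTA, and all 5 measured dopamine neuron markers were higher in VTA than in PFC. Against NAc, 4 of the 5 were higher in VTA, while Nr4a2 was higher in NAc by 1.54, and 3 of the 5 stood higher in NAc than in PFC.

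The deposited values share 1 scale within a region but not between regions. Medians of single NAc arrays ranged from 6.26 to 6.32, those of PFC arrays from 5.66 to 5.70 and those of VTA arrays from 5.79 to 5.86. Over all 19815 probesets that reached 4.5 on at least 1 array, the median difference was 0.72 for NAc minus PFC, 0.18 for VTA minus PFC and 0.55 for NAc minus VTA. Regions were therefore compared after all 57 arrays had been brought to 1 distribution, called the common scale below, and every difference between regions is relative to the bulk of the genes. A gene is called higher or lower when limma's adjusted p over all 19815 probesets was under 0.01 and the difference was at least 0.5 on the log2 scale, which is 1.41-fold. Levels of different genes were not compared, since each probeset has its own affinity. The lowest 25% of the common scale ended at 4.29, and 24 of the 70 genes had a mean under it in at least 1 region. Which arrays were processed together is not given in the sources used here, so region and processing batch cannot be told apart.

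As background, fibrillar collagens form the tough fibers of connective tissue, and in brain they are found mainly in the meninges and around larger vessels. Type IV collagen and the laminins, which are trimers of an alpha, a beta and a gamma chain, build the basement membrane that wraps brain vessels and underlies the glial surface. Integrins are cell surface receptors of an alpha and a beta subunit that bind these proteins and link them to the cytoskeleton. In whole tissue pieces such as these, fewer cells of a type and less RNA per cell cannot be told apart.

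In all, 25 of the 70 genes (35.7%) were called between NAc and PFC, 14 higher and 11 lower in NAc, beside 26.3% of all probesets. Between VTA and PFC 23 (32.9%) were called, 17 higher and 6 lower in VTA, beside 29.3% of all. Between NAc and VTA 24 (34.3%) were called, 7 higher and 17 lower in NAc, beside 30.5%. Over all probesets the directions were nearly even, with 14.7% higher and 14.6% lower in VTA than in PFC, while 24.3% of the members were higher and 8.57% lower. The comparisons share arrays and are not independent. Counted by gene, 35 of the 70 were called in no comparison, 7 in 1, 19 in 2 and 9 in all 3 (50%, 10%, 27.1% and 12.9%, beside 50.8%, 17.3%, 26.7% and 5.09% of all probesets). A highest mean called against both other regions was found in VTA for 10 genes (14.3%, beside 7.97% of all probesets), in NAc for 5 (7.14%, beside 5.28%) and in PFC for 3 (4.29%, beside 5.77%). A lowest mean called against both was found in NAc for 8 (11.4%, beside 5.8%), in PFC for 8 (11.4%, beside 4.9%) and in VTA for 3 (4.29%, beside 7.21%). On the deposited scale the split between NAc and PFC was 49 higher and 1 lower, and between NAc and VTA 25 higher and 6 lower. Of all probesets, 68.6% were higher and 2.63% lower in NAc than in PFC on that scale, and 54.1% and 4.55% against VTA. In that setting 10 calls between NAc and PFC ended, those of Col1a1, Col1a2, Col22a1, Col3a1, Col5a2, Fbln1, Fbln5, Fn1, Itgb1 and Lama3. Among them were all 8 genes counted above as lowest in NAc, so that count holds only on the common scale. Col22a1 and Lama3 had been counted as highest in PFC. Between NAc and VTA 11 ended, those of Col13a1, Col15a1, Col16a1, Col1a2, Col5a2, Col6a3, Fbln1, Fn1, Itga6, Itgae and Itgb4, and between VTA and PFC none did. Of these, Col15a1, Col16a1, Itga6, Itgae and Itgb4 had been counted as highest in VTA. With each array's median subtracted in place of the common scale, the split between NAc and PFC was 16 higher and 7 lower. Of all probesets 16.5% were higher and 11.8% lower in that setting.

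**Figure D1:**
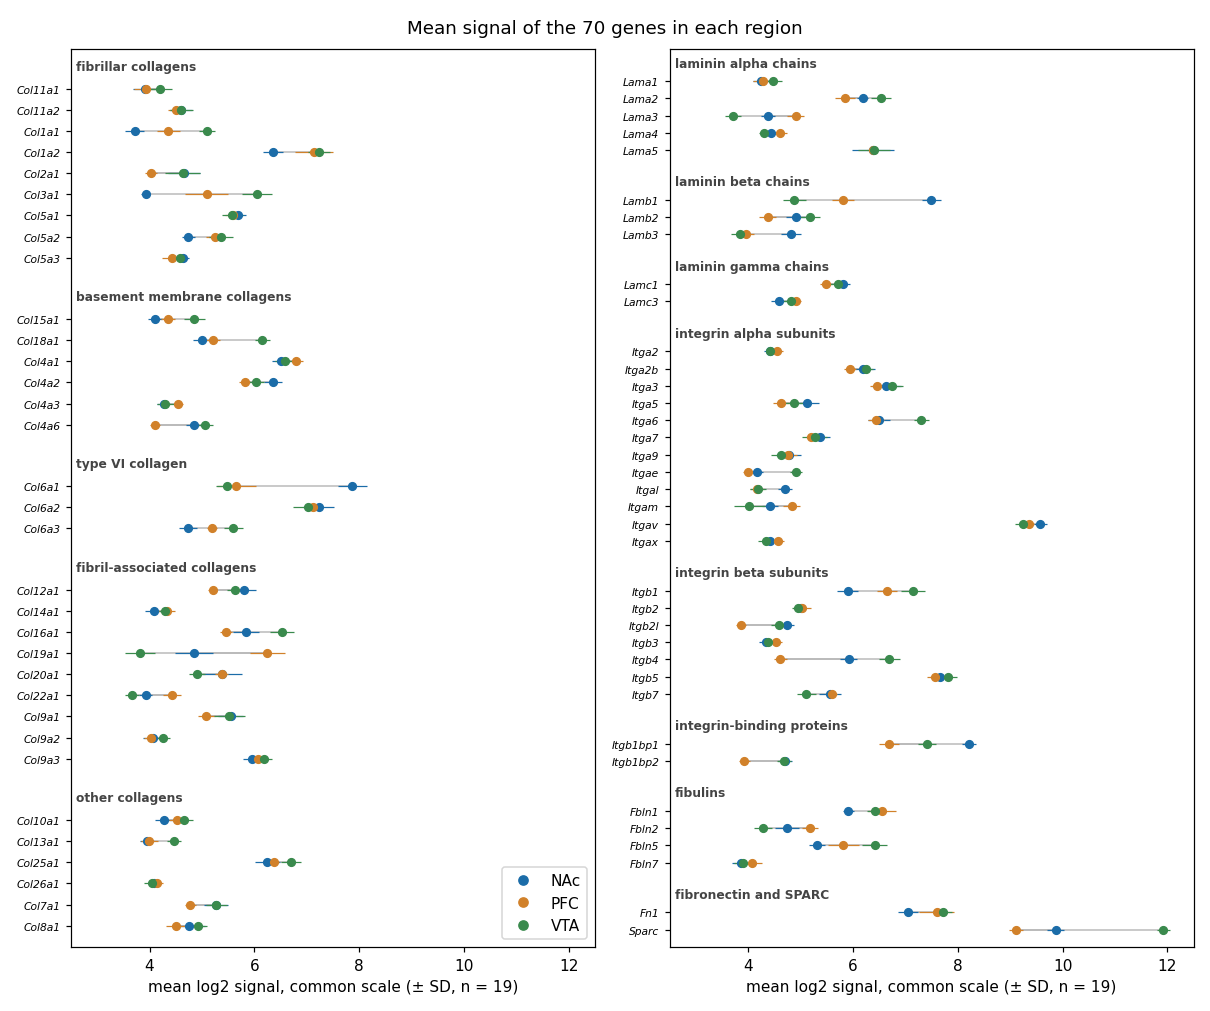
Mean log2 signal on the common scale of all 70 genes, grouped by family, with 1 point per region (NAc blue, PFC orange, VTA green) and the SD over 19 arrays as a bar. For 35 genes no comparison was called, while the means of Sparc, Lamb1, Col6a1, Col19a1, Itgb4 and Col3a1 spanned more than 2 log2 units. Levels should be read along a row and not between genes.

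Among the 9 fibrillar collagen genes measured, 4 were lower in NAc than in PFC and 1 was higher, while 3 were higher in VTA than in PFC and none lower. Against VTA, 4 were lower in NAc and none was higher. The shares called were 55.6% between NAc and PFC, 33.3% between VTA and PFC and 44.4% between NAc and VTA. Of all probesets 26.3%, 29.3% and 30.5% were called. Of the 4 lower in NAc than in PFC, Col3a1 and Col1a2 kept the call with array medians subtracted and none kept it in the deposited values, where Col3a1 was at -0.44 and Col1a2 at -0.17. The genes behind these counts were mainly those of type I and type III collagen, the abundant collagens of fibrous tissue. Col3a1, the single chain of type III collagen, ran from 3.78 to 4.15 in NAc with a median of 3.92, from 3.91 to 5.84 in PFC with a median of 5.10, and from 5.68 to 6.62 in VTA with a median of 6.05. The NAc and VTA arrays did not overlap, and PFC lay between them and touched both. VTA exceeded NAc 4.38-fold (log2 difference of NAc minus VTA -2.13, SE 0.09, adjusted p = 6.25e-30). Col1a1, the alpha-1 chain of type I collagen, ran from 3.43 to 4.13 in NAc (median 3.69), 3.97 to 4.76 in PFC (median 4.41) and 4.78 to 5.35 in VTA (median 5.11). Every VTA array was above every PFC and NAc array. As for Col3a1, every NAc array lay in the lowest 25% of the common scale, which ended at 4.29, so differences from NAc rest on low signal. The VTA excess was 1.68-fold over PFC (adjusted p = 1.4e-17) and 2.61-fold over NAc (adjusted p = 4.9e-30), and NAc was 1.55-fold below PFC on the common scale (adjusted p = 9.42e-15) but 0.17 log2 units above it in the deposited values.

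Col1a2, which supplies the other chain of type I collagen, ran from 6.01 to 6.67 in NAc with a median of 6.39, from 6.10 to 7.71 in PFC with a median of 7.17, and from 6.91 to 7.71 in VTA with a median of 7.20. It was thus lowest in NAc, with no overlap between NAc and VTA, but PFC and VTA shared most of their range. NAc was 1.72-fold below PFC (adjusted p = 1.34e-12) and 1.84-fold below VTA (adjusted p = 1.89e-14), while VTA minus PFC was 0.10 (SE 0.08, adjusted p = 0.294). The other Col1a2 probeset gave the same calls, -0.63 for NAc minus PFC and -0.57 for NAc minus VTA. Type V collagen, which nucleates type I fibrils, split by chain. Col5a2 was lower in NAc than in VTA by 0.63 and lower than in PFC by 0.50 on the common scale, where the deposited values put NAc 0.16 above PFC. Its other probeset gave -0.17 and -0.13 and was not called. Col5a1 differed by 0.10 or less in every comparison and was called in none. Col2a1, the cartilage collagen, was higher in NAc and VTA than in PFC, by 0.64 and 0.60, but its means of 4.66, 4.03 and 4.63 were close to the lowest 25% of the scale, which ended at 4.29.

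Meningeal fibroblast markers moved with these genes. Of the 9 listed markers (Dcn, Lum, Igf2, Ogn, Aldh1a2, Slc6a13, Slc13a4, Foxd1 and Pdgfra) 7 were measured, and 6 of the 7 were lower in NAc than in PFC and lower in NAc than in VTA, while 3 were higher in VTA than in PFC. Averaged per array, they ranged from 5.34 to 5.76 in NAc, from 5.76 to 7.5 in PFC and from 6.99 to 7.68 in VTA. None of the 9 endothelial markers measured was called between NAc and PFC or between VTA and PFC, and 1 was called between NAc and VTA. Of the 8 mural markers, 4 were lower in NAc than in PFC (Rgs5, Acta2, Myh11 and Anpep) and 1 higher, and 3 were lower in NAc than in VTA and 1 higher. The shares called between NAc and PFC were 85.7% of meningeal, 0% of endothelial and 62.5% of mural markers, beside 26.3% of all probesets. Between VTA and PFC they were 42.9%, 0% and 37.5%, beside 29.3%, and between NAc and VTA 85.7%, 11.1% and 50%, beside 30.5%. The mural mean per array ran from 6.00 to 6.43 in NAc, 6.14 to 6.90 in PFC and 6.25 to 6.69 in VTA. How much of the collagen differences goes with meninges or mural cells in the dissected piece was not tested.

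**Figure D2:**
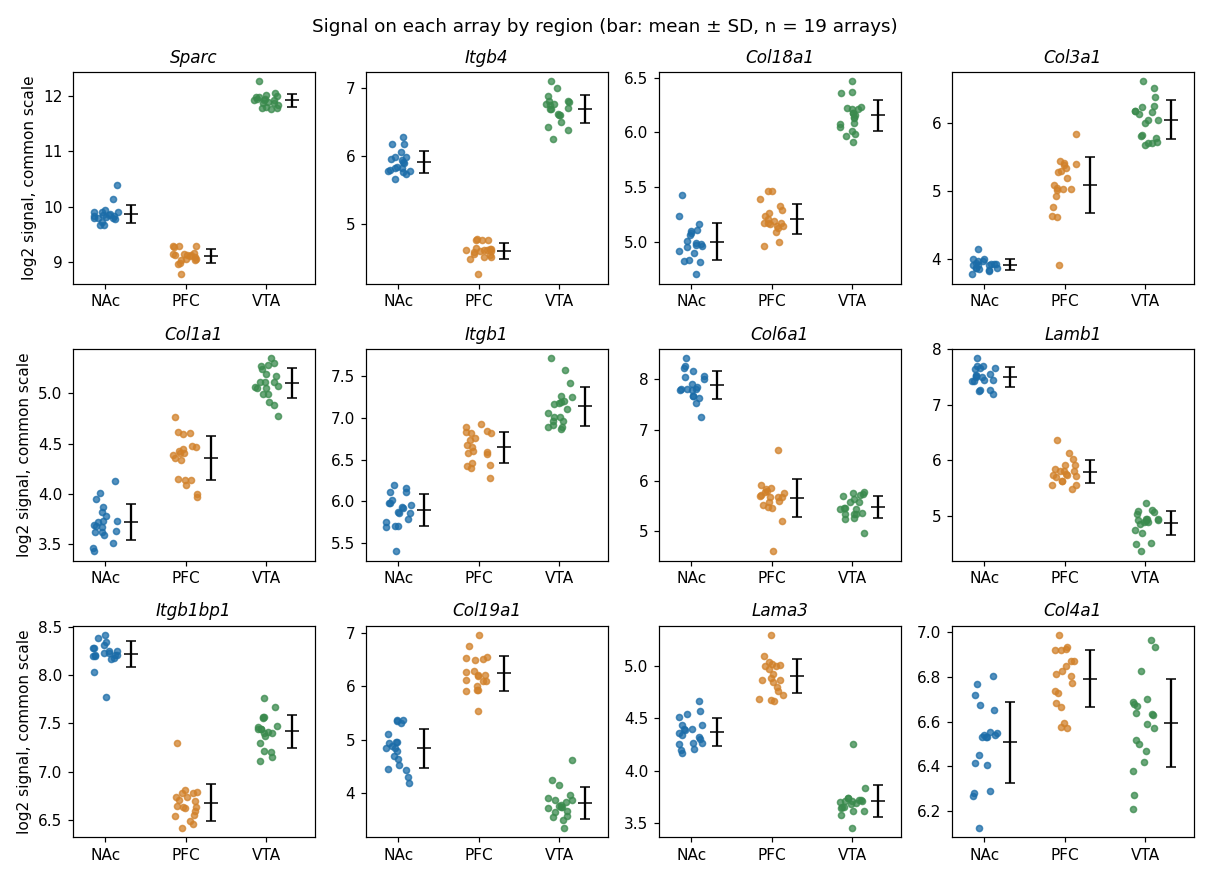
Log2 signal on the common scale for 12 genes, with 1 point per array in NAc, PFC and VTA, and the mean and SD over 19 arrays as a bar beside each group. Sparc, Itgb4, Col18a1, Col3a1, Col1a1 and Itgb1 were highest in VTA, Col6a1, Lamb1 and Itgb1bp1 in NAc, and Col19a1 and Lama3 in PFC, while the Col4a1 arrays of the 3 regions overlapped. In the deposited values NAc minus PFC turned from negative to positive for Lama3, Col1a1, Col18a1 and Col4a1 (0.18, 0.17, 0.44 and 0.33). Vertical axes differ between panels.

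Within PFC the type I and type III genes also varied together from mouse to mouse. Over 19 arrays, Col1a1 correlated with Col1a2 at r = 0.84 (rho 0.85, permutation p = 1e-05, the smallest that 100000 permutations can give, adjusted p = 0.00018) and with Col3a1 at r = 0.76 (rho 0.68, permutation adjusted p = 0.00162). The mean of the meningeal markers correlated with Col1a1 at r = 0.83 (rho 0.88, permutation adjusted p = 0.00018) and with Col3a1 at r = 0.94 (rho 0.79, permutation adjusted p = 0.00018). Without the 2 arrays farthest from the median these 4 values were 0.81, 0.66, 0.80 and 0.83, and without PFC replicate 3 they were 0.85, 0.73, 0.84 and 0.88. After the first principal component of the PFC arrays was removed, Col1a1 with Col1a2 was at r = 0.57 (adjusted p = 0.139), Col1a1 with Col3a1 at 0.34 (adjusted p = 0.516) and Col1a1 with the meningeal mean at 0.52 (adjusted p = 0.207), while Col3a1 with the meningeal mean remained at 0.80 (adjusted p = 0.00216). In VTA, Col3a1 and the meningeal mean correlated at r = 0.70 (rho 0.68, permutation adjusted p = 0.00657), and at r = 0.53 without the 2 farthest arrays. Col1a1 gave r = -0.12 there with the meningeal mean (rho -0.06, permutation adjusted p = 0.869). With Col1a2 and Col3a1 its r in VTA was 0.30 and 0.12 (rho 0.36 and 0.14, permutation adjusted p = 0.458 and 0.869). In NAc, Col3a1 and the meningeal mean gave r = 0.25 (rho 0.27, permutation adjusted p = 0.536), but there Col3a1 varied over only 0.37 log2 units on the common scale. Every NAc array of Col3a1 and of Col1a1 lay in the lowest 25% of that scale, under 4.29. Col1a1 in NAc gave r = 0.09 with the meningeal mean, 0.44 with Col1a2 and 0.43 with Col3a1 (permutation adjusted p = 0.906, 0.239 and 0.239). Differences between regions in these correlations were not tested.

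**Figure D3:**
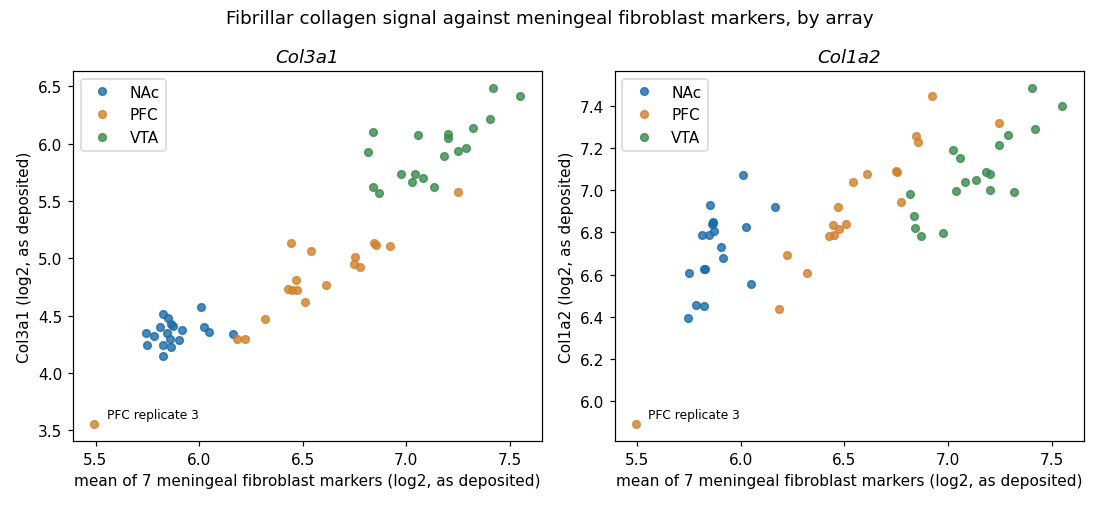
Col3a1 (left) and Col1a2 (right) against the mean of the 7 meningeal fibroblast markers, 1 point per array, all in deposited log2 values and coloured by region. In PFC both genes climb with the marker mean from PFC replicate 3 at the lower left, whereas the NAc arrays form a compact cloud. Deposited values share a scale only within a region, so points should be compared within a colour.

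Across all 70 genes, 7 had r of at least 0.6 with the meningeal mean in PFC (10%, beside 3.07% of all probesets), which were Col1a2, Col3a1, Fn1, Fbln5, Col1a1, Fbln1 and Col6a2. In VTA 2 did (Col1a2 and Col3a1, 2.86% beside 0.5%) and in NAc none did (beside 0.182%). Col1a2 gave r = 0.95 in PFC, 0.81 in VTA and 0.51 in NAc. Fn1, the secreted fibronectin that integrins bind, gave 0.87, 0.59 and 0.58, and Fbln5, an elastic fiber protein, 0.84, 0.36 and 0.36. Col19a1 ran the other way in PFC, at r = -0.72. PFC replicate 3, lowest in the meningeal mean, was the highest PFC array for Col19a1 and the lowest for Col1a2 and Fn1. The r of Col1a2, Fn1, Fbln5 and Col19a1 with the meningeal mean were not computed without it. These correlations are descriptions over 19 arrays that share RNA quality and dissection, and the bound of 0.6 was chosen after the values were seen.

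The promoters of the genes that moved together are shown to set their elements side by side. The windows run from 250 bases before to 50 bases after the transcription start in RefSeq on GRCm38.p6. Such windows were listed for 47 of the 70 genes. Capitals in the first pair mark exact matches on either strand to the GC box GGGCGG, the CCAAT box CCAAT and the TATA box TATAAA. The Col1a2 window (chr6:4505368-4505667, plus strand) held 2 GC boxes and 2 CCAAT boxes, and the Col3a1 window (chr1:45311288-45311587, plus strand) 1 TATA box.
Col1a2: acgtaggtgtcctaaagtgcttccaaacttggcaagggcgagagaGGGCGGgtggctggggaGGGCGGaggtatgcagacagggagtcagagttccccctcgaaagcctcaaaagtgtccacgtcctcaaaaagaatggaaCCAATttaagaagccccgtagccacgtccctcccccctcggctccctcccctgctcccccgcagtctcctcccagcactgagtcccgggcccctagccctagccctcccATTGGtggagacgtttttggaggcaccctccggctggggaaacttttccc
Col3a1: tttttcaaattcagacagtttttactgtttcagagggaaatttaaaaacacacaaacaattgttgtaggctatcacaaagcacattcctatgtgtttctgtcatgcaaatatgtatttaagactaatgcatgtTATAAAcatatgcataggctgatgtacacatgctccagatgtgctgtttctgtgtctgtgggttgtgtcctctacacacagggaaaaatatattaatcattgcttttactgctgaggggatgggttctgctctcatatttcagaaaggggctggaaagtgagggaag
Of all 32841 windows of this length, 35.7% held the GC box, 37.4% the CCAAT box and 13.6% the TATA box. Of the 47 genes with a window 28, 15 and 4 did (59.6%, 31.9% and 8.51%). These genes had 54 windows, and a gene counted when any of its windows matched. The shares of all windows are counted by window, so the 2 sets of shares are unlike measures. The member windows had a median GC content of 59.2%, beside 52.7% in all windows. A match is a description of the letters and says nothing of binding in these tissues.

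Of 6 basement membrane collagen genes measured, NAc exceeded PFC in 2 and VTA exceeded PFC in 3, with none lower, and 2 were lower in NAc than in VTA. These shares were 33.3%, 50% and 33.3%, beside 26.3%, 29.3% and 30.5% of all probesets. Type IV collagen, the network of every vascular basement membrane, is mostly a trimer of the Col4a1 and Col4a2 chains. Col4a1 ran from 6.13 to 6.80 in NAc (median 6.53), 6.57 to 6.99 in PFC (median 6.81) and 6.21 to 6.96 in VTA (median 6.63), and all 3 ranges overlapped. NAc minus PFC was -0.28 (SE 0.05, adjusted p = 5.19e-06) and VTA minus PFC -0.20 (SE 0.05, adjusted p = 0.000977), both under the bound of 0.5. In the deposited values NAc minus PFC was 0.33, the other direction, and the other Col4a1 probeset gave -0.11 (adjusted p = 0.0656). Col4a2 ran from 5.84 to 6.55 in NAc (median 6.39), 5.58 to 6.04 in PFC (median 5.85) and 5.75 to 6.31 in VTA (median 6.02). Its NAc level was 1.44-fold above PFC (difference 0.52, SE 0.05, adjusted p = 1.26e-14), with overlapping ranges. Across mice Col4a1 and Col4a2 correlated at r = 0.49 in NAc, 0.46 in PFC and 0.07 in VTA (rho 0.49, 0.44 and 0.18, permutation adjusted p = 0.207, 0.219 and 0.943).

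These genes lie head to head on opposite strands. Their RefSeq start sites in this annotation are 21 bases apart and placed so that the 5′ ends overlap. Their windows (chr8:11312777-11313076, minus strand, and chr8:11312555-11312854, plus strand) have 78 bases in common, shown in capitals. Each is written 5′ to 3′ in its own gene's direction, so the 2 runs of capitals are reverse complements.
Col4a1: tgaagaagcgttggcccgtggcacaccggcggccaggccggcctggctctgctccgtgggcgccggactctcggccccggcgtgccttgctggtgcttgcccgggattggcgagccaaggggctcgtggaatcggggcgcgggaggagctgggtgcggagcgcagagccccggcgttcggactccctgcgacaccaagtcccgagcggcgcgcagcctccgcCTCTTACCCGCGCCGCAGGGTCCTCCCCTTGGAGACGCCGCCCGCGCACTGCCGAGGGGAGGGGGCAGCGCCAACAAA
Col4a2: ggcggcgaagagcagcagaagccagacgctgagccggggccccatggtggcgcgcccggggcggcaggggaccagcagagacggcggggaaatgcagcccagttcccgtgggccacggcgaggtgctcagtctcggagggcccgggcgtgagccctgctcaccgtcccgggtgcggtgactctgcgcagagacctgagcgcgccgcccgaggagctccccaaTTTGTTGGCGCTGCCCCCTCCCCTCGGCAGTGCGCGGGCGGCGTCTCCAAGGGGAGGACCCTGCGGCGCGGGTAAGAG
Both windows are rich in G and C, 74% for Col4a1 and 73.7% for Col4a2.

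Of the remaining basement membrane collagens, Col18a1 and Col15a1 were highest in VTA, and Col4a3 was called in no comparison. Col18a1, which carries endostatin at its end, ran from 4.70 to 5.43 in NAc (median 4.98), 4.96 to 5.46 in PFC (median 5.17) and 5.91 to 6.46 in VTA (median 6.15). Every VTA array was above every other array. VTA was 1.93-fold above PFC (adjusted p = 2.21e-26) and 2.23-fold above NAc (adjusted p = 1.34e-30), and its other probeset gave differences of 0.82 and 0.78 in the same direction. Of 3 measured choroid plexus markers 1 (Ttr) was called higher in VTA than in PFC and NAc (33.3%, beside 29.3% and 30.5% of all probesets). The mean of the 3 reached 6.97 on VTA replicate 6 with 5.48 on the next array. Col18a1 on VTA replicate 6 was 6.18, near the VTA median. The part of choroid plexus in the Col18a1 result was not tested. Col15a1, its relative, was higher in VTA than in PFC by 0.51 and than in NAc by 0.75, with means of 4.1, 4.34 and 4.85. Its call against PFC was lost with the replicate number as a block and with array weights. For Col4a6 the probeset used was lower in PFC than in both other regions, but its other probeset gave -0.26 for NAc minus PFC and -0.06 for VTA minus PFC, so its direction depends on the probeset.

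Type VI collagen is a beaded filament whose trimer needs an alpha-1, an alpha-2 and a further chain, here Col6a1, Col6a2 and Col6a3. Col6a1 had one of the largest regional differences of the 70 genes, while Col6a2 was called nowhere and Col6a3 was highest in VTA. Col6a1 ran from 7.24 to 8.4 in NAc with a median of 7.81, from 4.62 to 6.61 in PFC with a median of 5.68, and from 4.96 to 5.77 in VTA with a median of 5.46. All NAc arrays lay above all others. NAc was 4.65-fold above PFC (difference 2.22, SE 0.09, adjusted p = 2.04e-30) and 5.25-fold above VTA (difference 2.39, adjusted p = 2.02e-32). Col6a2 had means of 7.23 in NAc, 7.13 in PFC and 7.02 in VTA and was called nowhere, the NAc minus PFC difference being 0.10 (SE 0.08, adjusted p = 0.229). Its other probeset was not called either, but gave 0.43 for NAc minus PFC (adjusted p = 9.23e-06) and 0.36 for NAc minus VTA, the direction of Col6a1. Col6a3 had means of 4.73, 5.20 and 5.60 and was called lower in NAc than in VTA (difference -0.87, adjusted p = 4.47e-24), though its NAc minus PFC difference, not called, turned from -0.47 to 0.19 in the deposited values. Col6a1 and Col6a3 have 1 kept probeset each. Across mice, Col6a1 and Col6a2 correlated at r = 0.76 in VTA (rho 0.71, permutation adjusted p = 0.00162, and 0.66 without the 2 farthest arrays). In PFC r was 0.58 (rho 0.63, permutation adjusted p = 0.0847 for r and 0.0356 for rho) and 0.41 without PFC replicate 3, and in NAc it was 0.02 (rho 0.06, permutation adjusted p = 0.97).

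Of 9 fibril-associated collagens, which coat larger fibrils, 3 were called between NAc and PFC, 3 between VTA and PFC and 2 between NAc and VTA. These shares were 33.3%, 33.3% and 22.2%, beside 26.3%, 29.3% and 30.5% of all probesets. The widest difference was that of Col19a1, made by subsets of interneurons in mouse brain. It ran from 4.19 to 5.37 in NAc (median 4.84), 5.54 to 6.96 in PFC (median 6.21) and 3.36 to 4.63 in VTA (median 3.77). Every PFC array exceeded every array of the other regions, and NAc and VTA overlapped at their edges. PFC was 2.64-fold above NAc (adjusted p = 6.9e-19) and 5.36-fold above VTA (adjusted p = 2.55e-30), and NAc was 2.03-fold above VTA (adjusted p = 1.33e-13). Col16a1 was highest in VTA, from 6.15 to 6.97 with a median of 6.53, while its PFC arrays ran from 5.22 to 5.69 with a median of 5.46 and its NAc arrays from 5.52 to 6.31 with a median of 5.74. VTA was 2.1-fold above PFC without overlap (adjusted p = 1.1e-22) and 1.61-fold above NAc with overlap (adjusted p = 1.57e-14). For Col12a1, NAc minus PFC was 0.61, with no overlap. Col22a1 was highest in PFC, but its means were 3.92, 4.43 and 3.67, the deposited values put it 0.27 higher in NAc than in PFC, and its other probeset gave 0.43 and 0.29 for NAc and VTA minus PFC. Col9a3 was not called on the probeset used, but its other probeset, with means of 4.24, 3.42 and 4.55, was higher than PFC by 0.82 in NAc and 1.13 in VTA. Among the 6 other collagens only Col13a1, a membrane collagen, was called, lower in NAc than in VTA by 0.53.

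On the probesets used, all 3 laminin beta chains were called in at least 1 comparison, beside 2 of 5 alpha chains and neither gamma chain. Of all probesets, 50.8% were called in no comparison. Each gamma chain had another probeset that was called, that of Lamc3 lower in VTA than in PFC by 0.53. Lamb1, the beta chain of the early and widespread laminins, ran from 7.19 to 7.83 in NAc with a median of 7.5, from 5.49 to 6.37 in PFC with a median of 5.76, and from 4.38 to 5.23 in VTA with a median of 4.93. No 2 regions overlapped, and the order was NAc, PFC, VTA. NAc was 3.24-fold above PFC (difference 1.70, SE 0.06, adjusted p = 2.32e-32) and 6.15-fold above VTA (difference 2.62, SE 0.06, adjusted p = 1.57e-42), and VTA was 1.9-fold below PFC (adjusted p = 6.02e-20). The other 2 Lamb1 probesets gave the same 3 calls, with NAc minus VTA at 2.26 and 1.15. Lamb2, the beta chain of vascular and synaptic laminin, was instead highest in VTA, where it ran from 4.81 to 5.55 with a median of 5.19. It ran from 4.52 to 5.19 in NAc (median 4.94) and from 4.1 to 4.79 in PFC (median 4.35), so that VTA and PFC were separate and NAc overlapped both. VTA was 1.76-fold above PFC (adjusted p = 1.06e-19) and NAc 1.45-fold above PFC (adjusted p = 1.58e-12). Lamb3, the beta chain of the epithelial laminin, had differences of 0.86 for NAc minus PFC and 0.98 for NAc minus VTA, at means of 4.82, 3.96 and 3.84. It reached 4.5 only in NAc and so entered the list through the region where it was highest. The counts of genes higher in NAc include it.

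Among the alpha chains, Lama3, the partner of Lamb3 in epithelia, was highest in PFC. It ran from 4.17 to 4.66 in NAc (median 4.36), 4.67 to 5.29 in PFC (median 4.89) and 3.45 to 4.25 in VTA (median 3.70). PFC was above VTA 2.29-fold without overlap (adjusted p = 3.76e-31), and NAc was 1.45-fold below PFC on the common scale (adjusted p = 5.88e-15) but 0.18 log2 units above it in the deposited values. Lama2, the alpha chain made by glia and pericytes, was higher in VTA than in PFC by 0.69, with means of 6.18, 5.85 and 6.54. The vascular chains Lama4 and Lama5 were called in no comparison. Their largest differences were -0.31 for VTA minus PFC in Lama4 and -0.03 for NAc minus VTA in Lama5. The other Lama5 probeset gave -0.28 for NAc minus PFC and -0.27 for VTA minus PFC and was not called. On the probeset used the common gamma chain Lamc1, with means of 5.81, 5.49 and 5.71, was not called either. The other Lamc1 probeset, however, was called higher in NAc than in PFC by 0.90 (adjusted p = 4.25e-24) and in VTA than in PFC by 0.60 (adjusted p = 1.82e-16). Lamc1 was paired across mice with Lamb1, Lamb2, Lama4 and Lama5 in each region. The r of these 12 pairs ranged from -0.02 for Lamb1 in PFC to 0.49 for Lama4 in VTA (rho 0.01 and 0.38), and none passed (permutation adjusted p = 0.97 and 0.207).

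Of the integrin subunits, 1 of 12 alpha and 3 of 7 beta subunits were called between NAc and PFC, 3 and 2 between VTA and PFC, and 3 and 2 between NAc and VTA. These shares were 8.33%, 25% and 25% of alpha and 42.9%, 28.6% and 28.6% of beta subunits. Of all probesets 26.3%, 29.3% and 30.5% were called. Itgb1, the beta subunit shared by most matrix receptors, ran from 5.40 to 6.20 in NAc (median 5.92), 6.28 to 6.93 in PFC (median 6.65) and 6.87 to 7.72 in VTA (median 7.10). NAc arrays lay below all PFC and VTA arrays, and PFC and VTA met at the edge. NAc was 1.68-fold below PFC (adjusted p = 6.3e-16) and 2.37-fold below VTA (adjusted p = 1.08e-25), and VTA minus PFC was 0.49, just short of the bound, with its other probeset at 0.66 and called. For NAc minus PFC that other probeset gave only -0.32 and was not called, and in the deposited values the probeset used gave -0.14. Itgb4, which joins Itga6 in a laminin receptor, ran from 5.66 to 6.29 in NAc (median 5.90), 4.27 to 4.78 in PFC (median 4.62) and 6.26 to 7.09 in VTA (median 6.71). PFC lay below both other regions without overlap. VTA was 4.23-fold above PFC (difference 2.08, SE 0.05, adjusted p = 1.05e-41), NAc 2.47-fold above PFC (adjusted p = 1.02e-30) and VTA 1.71-fold above NAc (adjusted p = 3.35e-20). Oligodendrocyte markers had the same order, with 7 of 7 higher in NAc than in PFC, 7 of 7 higher in VTA than in PFC and 6 of 7 lower in NAc than in VTA. Averaged per array, they ranged from 10.20 to 10.49 in NAc, from 7.97 to 9.35 in PFC and from 10.98 to 11.31 in VTA, and their part in the Itgb4 result was not tested.

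Itga6, the laminin-binding alpha subunit that pairs with Itgb1 and Itgb4, was higher in VTA than in PFC by 0.86 and than in NAc by 0.81 on the probeset used. Its other probeset gave 0.31 for VTA minus PFC and 0.05 for NAc minus VTA and was not called. Itgav, the alpha subunit of vitronectin receptors, had means of 9.57, 9.36 and 9.23 and was called nowhere, and of its 2 other probesets the one with means of 4.30, 5.38 and 4.97 was called lower in NAc than in both other regions (-1.07 and -0.66). Itga5, of the fibronectin receptor, had a NAc minus PFC difference of 0.50 that was just short of the bound, and its other probeset gave -0.04. Itgb5 had means of 7.65, 7.57 and 7.82 and no call on the probeset used. Of its 3 other probesets 1 was called, higher in NAc than in PFC by 0.76 (adjusted p = 1.34e-12). Itgae, of a lymphocyte receptor, was higher in VTA than in PFC by 0.93 and than in NAc by 0.75 without overlap, at means of 4.17, 3.99 and 4.92. Receptor partners were also correlated across mice. Itga5 and Itgb1 correlated at r = -0.37 in NAc, -0.16 in PFC and -0.29 in VTA (rho -0.29, -0.09 and -0.41), Itga6 and Itgb1 at 0.12, 0.26 and 0.05 (rho -0.14, 0.32 and 0.23), and Itgav and Itgb5 at 0.09, 0.46 and 0.48 (rho -0.06, 0.35 and 0.52). Itgav with Itgb5 had an unadjusted permutation p = 0.0473 in PFC and 0.0383 in VTA, and none of the 9 passed after adjustment, the lowest permutation adjusted p being 0.207.

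The leukocyte integrin Itgam, which in brain marks microglia, ran from 4.11 to 4.63 in NAc (median 4.42), 4.5 to 5.14 in PFC (median 4.84) and 3.40 to 4.67 in VTA (median 4.02). The ranges overlapped, with VTA lowest. VTA was 1.75-fold below PFC (adjusted p = 5.61e-17). Of 9 microglial markers measured, 3 were lower and none higher in VTA than in PFC, a share of 33.3% and near the 29.3% of all probesets. Their mean per array was 7.59 to 8.07 in PFC, 7.44 to 7.79 in VTA and 7.82 to 8.08 in NAc. The Itgam partner Itgb2 had means of 5.0, 5.02 and 4.94 and no call. Across mice, the correlations of both with the microglial marker mean did not pass, with r from -0.06 to 0.14 for Itgam (rho -0.08 to 0.11) and from -0.06 to 0.32 for Itgb2 (rho -0.12 to 0.31), and the lowest permutation adjusted p was 0.432. Itgal, another leukocyte alpha subunit, stood higher in NAc, by 0.53 over PFC and 0.51 over VTA, the latter not called without NAc replicates 1, 6 and 19. Itgb2l was higher in NAc and VTA than in PFC by 0.89 and 0.72, at means of 4.74, 3.86 and 4.58. Levels of Itgam, Itgal and Itgb2l lie in the lower part of the scale, whose median was 5.94.

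NAc exceeded PFC for both proteins that bind the beta-1 tail. Itgb1bp1 (ICAP-1), which holds the receptor inactive, ran from 7.77 to 8.41 in NAc with a median of 8.22, from 6.42 to 7.30 in PFC with a median of 6.65, and from 7.11 to 7.76 in VTA with a median of 7.44. NAc stood clear of the other regions, and PFC and VTA overlapped at the edge. NAc was 2.9-fold above PFC (difference 1.53, SE 0.05, adjusted p = 2.51e-34) and 1.74-fold above VTA (adjusted p = 8.08e-21). Itgb1 itself was lowest in NAc. Itgb1bp2, known from muscle, was lower in PFC than in both other regions by 0.78 and 0.76, at means of 4.70, 3.92 and 4.68.

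Of the matricellular genes, Sparc had the largest difference of the 70 genes. SPARC is a collagen-binding glycoprotein that brain glia and vessels secrete. Sparc ran from 9.67 to 10.40 in NAc with a median of 9.83, from 8.78 to 9.30 in PFC with a median of 9.12, and from 11.76 to 12.26 in VTA with a median of 11.93. All 3 regions were separate. VTA was 7.03-fold above PFC (difference 2.81, SE 0.05, adjusted p = 1.48e-52) and 4.17-fold above NAc (difference of NAc minus VTA -2.06, SE 0.05, adjusted p = 2.69e-45), and NAc was 1.69-fold above PFC (adjusted p = 7.21e-23). The other Sparc probeset gave 2.79, -2.0 and 0.79. Astrocyte markers moved the same way between VTA and PFC in part, 4 of 8 higher and 1 lower (62.5% called, beside 29.3% of all probesets). Their means per array were 9.43 to 9.73 in VTA, 8.80 to 9.10 in PFC and 8.73 to 9.04 in NAc. Their part in the Sparc result was not tested.

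Fn1 ran from 6.66 to 7.37 in NAc (median 7.09), 6.84 to 8.13 in PFC (median 7.57) and 7.42 to 7.99 in VTA (median 7.71). NAc and VTA did not overlap, and NAc was 1.59-fold below VTA (adjusted p = 7.8e-12) and 1.47-fold below PFC on the common scale (adjusted p = 3.27e-09), where the deposited values gave 0.08 in the other direction. The fibulins, which link elastic fibers and basement membrane, divided. Fbln5 was highest in VTA, from 6.00 to 6.97 with a median of 6.39, and lowest in NAc, from 5.05 to 5.63 with a median of 5.32, with PFC from 5.25 to 6.57 and a median of 5.83. VTA was 2.14-fold above NAc without overlap (adjusted p = 2.33e-20). Its NAc minus PFC difference of -0.50 was at the bound, was lost without PFC replicate 20 or without the 3 NAc arrays, and was 0.12 in the deposited values. Fbln1 was lower in NAc than in PFC by 0.65, though its other probeset gave -0.03, and in the deposited values the difference was -0.04 and not called. Fbln2 was 1.87-fold lower in VTA than in PFC without overlap (adjusted p = 4.76e-21), with means of 4.73, 5.18 and 4.28.

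Between mice of the same region, the median SD of the genes described here was 0.18 in NAc, 0.15 in PFC and 0.19 in VTA (deposited values, 19 arrays each), beside 0.17, 0.14 and 0.17 for all probesets, and 42, 41 and 41 of the 70 lay above those medians. In PFC the most variable were Col3a1 (SD 0.43), Col6a1 (0.39), Col1a2 (0.35), Col19a1 (0.35) and Fn1 (0.33). PFC replicate 3 was the lowest array for Col3a1, Col6a1, Col1a2 and Fn1 and the highest for Col19a1. In NAc the most variable were Col20a1 (SD 0.39), Lama5 (0.37), Col2a1 (0.34), Col8a1 (0.33) and Col19a1 (0.31). The highest array was NAc replicate 19 for Col20a1 and Lama5 and NAc replicate 6 for Col2a1 and Col8a1, and in Col20a1, Col2a1 and Col8a1 NAc replicates 1, 6 and 19 were the 3 highest. They were the 3 highest for 7 of the 70 genes and the 3 lowest for none. In VTA the most variable were Col2a1 (SD 0.35), Col9a1 (0.27), Itgam (0.27), Col19a1 (0.27) and Col3a1 (0.27), and VTA replicate 3 was highest in Col2a1 and Col9a1. Without the 3 NAc arrays the median SD in NAc was 0.15.

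**Figure D4:**
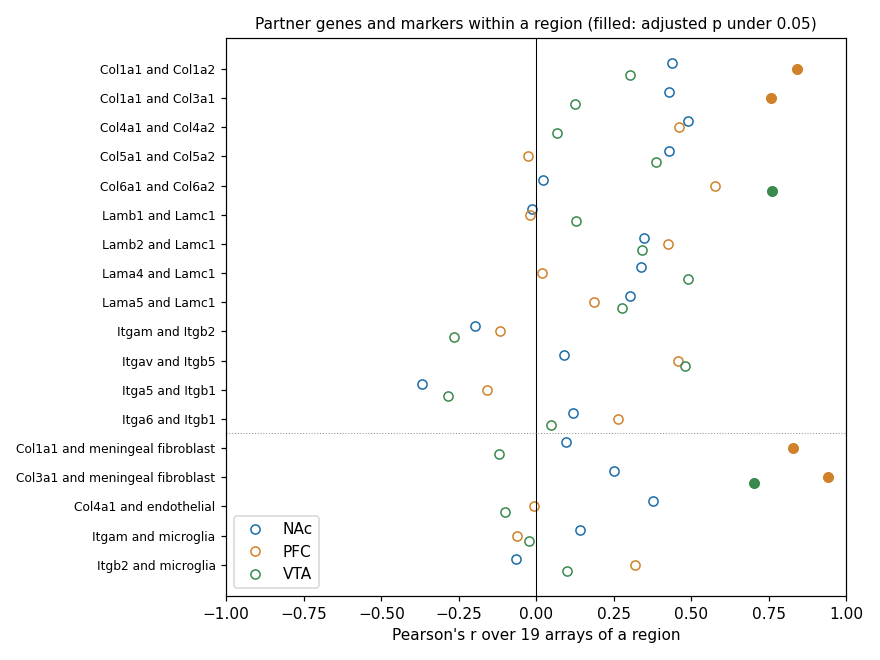
Pearson's r across the 19 arrays of a region for 13 pairs of partner genes (above the dotted line) and 5 pairs of a gene and a marker mean (below it), with NAc in blue, PFC in orange and VTA in green. Filled points have a permutation p under 0.05 after adjustment over 54 correlations, which held for 6, 4 of them in PFC and 2 in VTA.

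In all, 54 correlations were computed, 13 partner pairs and 5 marker pairs in each region, and 6 had a permutation p under 0.05 after Benjamini-Hochberg adjustment, 4 in PFC, 2 in VTA and none in NAc. Without adjustment 12 had a permutation p under 0.05. All 6 concerned fibrillar or type VI collagens, and no laminin or integrin pair was among them. With Spearman's rho in place of r 7 passed, and after the first principal component of each region was removed 3 did, Col3a1 with the meningeal mean in PFC and in VTA and Col6a1 with Col6a2 in VTA.

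Genes that build, anchor or read this matrix were counted from lists written from general knowledge. Of 15 measured collagen-processing genes, 4 were higher and 1 lower in VTA than in PFC. Plod1, a lysyl hydroxylase, was higher by 1.43 and Pcolce, the procollagen peptidase enhancer, by 0.60, while for P4ha1, a prolyl hydroxylase subunit, VTA minus PFC was -0.75 (limma adjusted p = 1.49e-17). Between NAc and VTA 1 was higher and 4 were lower, among the latter Pcolce (difference -1.33) and Plod1 (-1.0). Between NAc and PFC 1 was higher and 2 were lower. Of 9 basement membrane partners, 3 were higher in VTA than in PFC, led by Sgce (1.05), a sarcoglycan, and Vtn (0.85), which encodes vitronectin, and none was lower. Nid1, the nidogen that bridges laminin and type IV collagen, was lower in NAc than in VTA (difference -1.03). Of 13 integrin adaptors, 2 were higher and 4 lower in VTA than in PFC. Actn1, an actinin that ties integrins to actin, had a VTA minus PFC difference of -1.46, and Parva, the alpha-parvin that anchors integrin-linked kinase, was higher by 0.67. The background of all probesets in these comparisons was 26.3%, 29.3% and 30.5%, and the shares of called genes in these lists ranged from 11.1% to 46.2%.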

How the data were processed

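The deposited values are log2 RMA signals that the authors made from 57 Affymetrix mouse arrays, 22626 probesets each. GCOS and RMA are the tools named in the processing notes of the submitters, with no version. Whether RMA was run on each region alone is not given in the sources used here. Symbols came from GEO's platform annotation (20380 probesets with 1 symbol, 691 with several, 1555 with none, the last 2 kinds named nowhere). Probesets reaching 4.5 on at least 1 array were kept (19815), following the filter and the false discovery rate of 1% of the study's methods.

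For region comparisons all arrays were quantile normalized together and fitted in 1 limma model with eBayes and Benjamini-Hochberg adjustment. Within regions the deposited values were used, with two-sided permutation tests (100000 permutations). The scripts were tested on simulated data. The 19 arrays per region limit the precision. The limma p-values measure the spread between arrays within regions, pooled over the 57 arrays. They take these as independent, although the same mice gave all 3 regions. Mouse, dissection and array effects are not separated in that spread. The permutation p-values rest on the 19 arrays of 1 region, 1 per mouse. Analyses used R 4.3.3, limma 3.58.1, Python and scipy.

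The members, gene lists, pairs and tests were chosen with earlier results of these data known. Named genes are the 6 largest called differences per comparison and direction, both genes of each partner pair, Fn1 and Sparc, the 5 most variable genes per region and any gene whose probesets were called in opposite directions (there was none). Other genes were named after their values were seen. Alternatives covered the scale, the filter, a minimum difference of 1, the replicate number as a block, array weights, 1 probeset per gene, other probesets, rank correlation and the arrays named above. Intake per mouse was not used.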

Additional observations from a re-analysis of the deposited data

How the results depend on the processing

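The scale of the arrays mattered most. With the values as deposited, 50 genes were called between NAc and PFC, 49 higher and 1 lower in NAc. In that setting 27 were higher and 6 lower in VTA than in PFC, and 25 were higher and 6 lower in NAc than in VTA. Of all probesets, 68.6% were higher and 2.63% lower in NAc than in PFC. For VTA against PFC these shares were 23.1% and 10.8%, and for NAc against VTA 54.1% and 4.55%. Over all 70 genes, called or not, the sign turned for 30 in NAc minus PFC, 23 in NAc minus VTA and 13 in VTA minus PFC. Among the genes named by the rule above and called in either setting it turned only in NAc minus PFC. There Col1a1 was at 0.17, Col5a2 at 0.16, Fn1 at 0.085, Fbln5 at 0.12, Lama3 at 0.18, Col22a1 at 0.27, Lama4 at 0.55, Lama5 at 0.60 and Itgb2 at 0.64. Of genes named outside the rule, Col13a1 (0.74), Col14a1 (0.53), Col15a1 (0.52), Col26a1 (0.71), Fbln7 (0.59) and Itgb7 (0.58) turned in NAc minus PFC as well. The median of all probesets is itself shifted by 0.72 there. With array medians subtracted, 7 genes were lower in NAc than in PFC, beside 11.8% of all probesets. A minimum difference of 1 left 6 calls between NAc and PFC (4 higher, 2 lower), 5 between VTA and PFC (3 and 2) and 9 between NAc and VTA (3 and 6), fewer by construction. Of all probesets it left 6.48%, 9.47% and 9.45%.

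Of 30 other probesets of 24 genes, 9, 9 and 11 had the other sign in NAc minus PFC, NAc minus VTA and VTA minus PFC. Where a call stood on either probeset, the named genes turned were Col4a6 (-0.26 for NAc minus PFC, -0.061 for VTA minus PFC), Col22a1 (0.43 and 0.29), Col20a1 (0.51 for VTA minus PFC), Itgav (-1.07 for NAc minus PFC, -0.66 for NAc minus VTA) and Itga6 (0.050 for NAc minus VTA), and Col9a3 turned as well (0.82 for NAc minus PFC). The cause was not tested. With the first principal component removed, 3 correlations passed in place of 6. Without PFC replicate 3, Col22a1 was not called between NAc and PFC, and without NAc replicates 1, 6 and 19 Fbln5 (NAc and PFC) and Fbln1 and Itgal (NAc and VTA) were not.

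With the replicate number as a block, 24 genes were called between NAc and PFC (14 higher, 10 lower, without Fbln5), 24 between VTA and PFC (16 and 8, without Col15a1 and with Col20a1 and Itgb7) and 24 between NAc and VTA (7 and 17). Of all probesets 26.1%, 29.3% and 30.6% were called with this block. Same-numbered arrays deviated together (r over 0.1) in 6, 10 and 6 of 18 number pairs, and an array correlated best with its own number in 1, 2 and 1 cases, so the numbers were not taken to pair the arrays. With no filter, 1 probeset per gene or array weights, 355 of 360 differences of named genes kept direction and side of the threshold, 3 lost the call and 2 gained one. The number of arrays and the low signal of genes near 4.5 limit what can be seen.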

Other observations

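Matrix proteases and their inhibitors, which trim the collagens and laminins described above, were called for 10 of 15 measured genes between VTA and PFC (6 higher, 4 lower), 8 between NAc and VTA (4 higher, 4 lower) and 3 between NAc and PFC. These shares were 66.7%, 53.3% and 20%, beside 29.3%, 30.5% and 26.3% of all probesets. Timp4, an inhibitor of matrix metalloproteinases, was higher in VTA than in PFC by 1.68, and NAc minus VTA was -1.35. Timp3, the inhibitor that stays bound to the matrix, was higher in VTA than in PFC by 1.10 and in NAc than in PFC by 0.56. Mmp17, a membrane-anchored metalloproteinase, had a VTA minus PFC difference of -2.13 and a NAc minus VTA difference of 1.91.

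Of 19 measured genes of the interstitial and perineuronal matrix, 4 were higher and 6 lower in NAc than in PFC, and 4 higher and 2 lower in VTA than in PFC. The shares called were 52.6% and 31.6%, beside 26.3% and 29.3% of all probesets. The small leucine-rich proteoglycans Lum and Fmod, which bind collagen fibrils, had NAc minus PFC differences of -1.82 and -1.31 and NAc minus VTA differences of -1.97 and -1.76. Lum and Dcn are also on the meningeal fibroblast list. Thbs4, a thrombospondin, had a NAc minus PFC difference of 1.5.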
